A study of Bombus terrestris audax with 20 samples.

Results

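This report describes what changed in worker-destined larvae of the bumblebee *Bombus terrestris audax* between the early and the mid instar stage, across all 14817 features of the deposited mRNA-seq table. The members were chosen by their labels alone: the 3 early libraries EW1, EW2 and EW3 and the 2 mid libraries MW2 and MW3, which makes 5 of the 17 libraries with values. Worker-destined means that the larvae were taken from colonies in which the mother queen had been left, whereas the queen-destined larvae, used here only for comparison (early EQ and mid MQ, 6 libraries), came from colonies without her. The labels name no other treatment. Every library was a pool of whole larvae from 1 colony, so the spread between libraries is a spread between colonies and not between individual larvae. EW2 and MW2 came from the same colony, as did EW3 and MW3. The authors had left out MW1, the mid library of the EW1 colony, for its low similarity to the other MW libraries. The closeness of MW2 and MW3 is thus partly a result of that choice.

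Female bumblebee larvae pass a period early in life in which the presence of the queen directs them to the worker path, and the study placed the early stage before and the mid stage after it. Over the same time the larva feeds, grows and moults, under the control of juvenile hormone and ecdysteroids. Juvenile hormone holds the larval programme through the transcription factor Kr-h1, ecdysteroids set off the moults, and the fat body stores protein as hexamerins, while Notch, insulin and receptor tyrosine kinase signals shape the growing tissues.

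Values were normalised abundances, corrected for feature length and brought to 1 common distribution by the authors. How well levels compare between features was not tested. All log2 changes are on the log2(abundance + 20) scale, which understates the change of features below about that level. On the limma test with Benjamini-Hochberg adjustment, 285 features were higher in MW than in EW (1.92% of those tested) and 258 were lower (1.74%), which together is 3.66%. Rises were the larger changes on the log2(abundance + 20) scale. The median called rise was 1.21 and the median called fall -0.66, and 197 rises and 44 falls were of more than 1. The offset bears more on the falls, of which 72 had a mean abundance under 20, against 28 of the rises. Without the offset, the median of the EW means was 78.8 for the rises and 71.2 for the falls. That of the MW means was 292 and 31.8. By the simpler rule that the ranges of the 2 groups do not overlap, 2656 features were higher in MW (17.9%) and 3006 lower (20.3%), together 38.2%, and all 543 features past limma met this rule. An offset fold change over 1, that is a gap between the nearest libraries of the 2 groups of more than 2-fold after the offset, was met by 126 features that were higher in MW (0.85%) and 26 that were lower (0.175%), together 1.03%. Both rules pass more features where a library is left out. The ranges did not overlap for 4548 higher and 4639 lower features without MW2, 5029 lower features without MW3 and 4953 lower features without EW3. An offset fold change over 1 was met by 203 higher and 82 lower features without MW2, 234 and 56 without MW3, 229 and 80 without EW3, and 50 lower features without EW2.

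These counts rested on few libraries. Without EW1 the limma counts were 168 higher and 147 lower, without EW2 147 and 128, without MW2 86 and 63, and without MW3 107 and 45, and 59 rises and 29 falls were called whichever of the 5 libraries was left out. With the colony as a replicate block, 148 features were lower, and the count of higher features moved by less than 1.5 times. Stage accounted for 49.99% of the variation among the 5 libraries, where 25% is the value chance would give, and the exact permutation test gave p = 0.1, the smallest that 10 splits of 5 libraries allow. The mean absolute log2 difference was 0.179 to 0.294 between EW libraries, 0.213 between the MW libraries and 0.286 to 0.356 between an EW and an MW library, so the 2 stages overlapped little on this measure, with EW3 the nearest to MW.

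The 17 libraries also fell into 2 sets that cut across stage and caste, told apart by 22 unannotated features, of which 19 lay on unplaced scaffolds. In 9 libraries, EW1 and EW2 among them, 20 of these features took 4.59 to 11.3% of all abundance, and in the other 8, among them EW3, MW2 and MW3, 0.164 to 0.527%. None of the 22 was called between EW and MW by limma, which could hardly call them because they split the EW libraries. For example, uNW_003568514.1_1_229 was at 209819 in EW1 and EW2 and at 1259 in EW3. It was at 1384 in MW2 and 1356 in MW3, a log2 change of -4.79 ± 3.02 SE. The part of the sets in the other results was not tested beyond 2 alternatives added after the data had been seen. With the set as a term, 199 features were higher and 188 lower, of which 181 and 166 were among the calls above. When EW3 alone, the EW library of the same set, was compared with MW, 73 were higher and 46 lower.

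The largest rise came from a group of 5 neighbouring features within 17155 bp, positions 8150633 to 8167787 of sequence NC_015773.1 in the genome build Bter_1.0. All 5 features that lie there rose, by 5.33 to 6.95 on the log2 scale. No product name could be read for any of them, 4 are annotated genes and 1 is an unannotated transcript, and their abundances are shown by library in the plot of the stretch. The feature NC_015773.1_8158161_8159101 had an abundance of 742 in EW1, 1147 in EW2 and 1593 in EW3, against 175329 in MW2 and 110353 in MW3. Both MW libraries were thus far above all EW libraries (log2 change 6.95 ± 0.72 SE, limma adjusted p = 0.000204). Its neighbour NC_015773.1_8155580_8156578 went from 1098, 1925 and 1957 in the EW libraries to 120345 and 104466 in the MW libraries. NC_015773.1_8160847_8161830 went from 1554, 1968 and 1952 to 85943 and 78396, a log2 change of 5.48 ± 0.59 SE. The stretch as a whole took 0.0388% of all abundance in EW1, 0.0567% in EW2 and 0.0636% in EW3, and 4.11% in MW2 and 3.10% in MW3, so that 3 of its features stood among the 20 most abundant of the MW larvae. Reads that fit more than 1 place were counted at each, so neighbours of near-identical sequence may share reads.

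**Figure D1:**
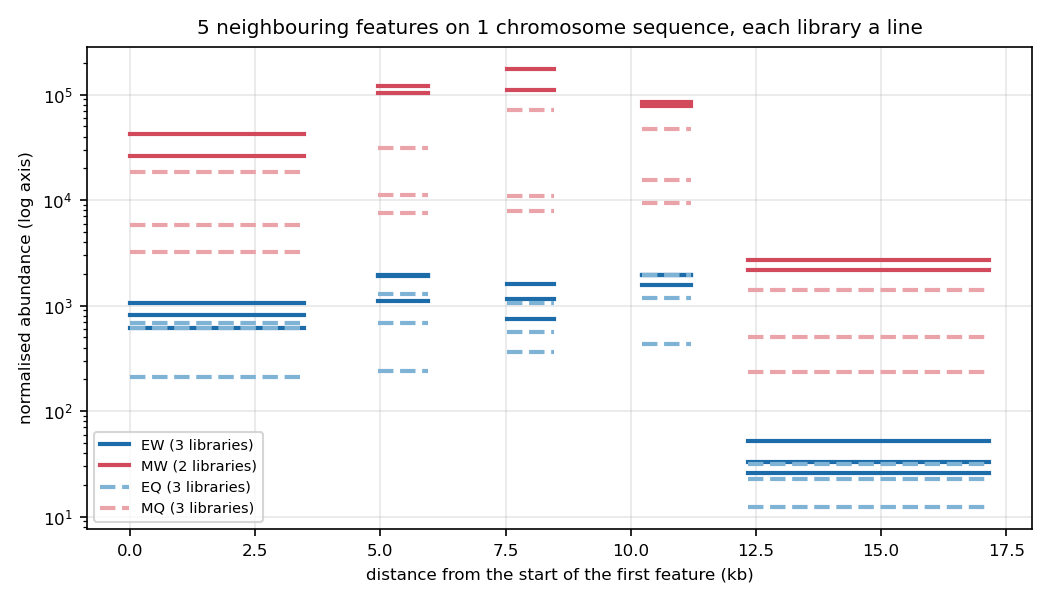
Normalised abundance (log axis) of the 5 neighbouring features against distance in kb from the start of the first; each horizontal line is 1 feature in 1 library, solid for worker-destined and dashed for queen-destined larvae. MW lines lie above all EW lines at every feature, and MQ lines lie between EQ and MW.

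In queen-destined larvae the same 5 features also rose (queen log2 changes of 4.47 for NC_015773.1_8155580_8156578 and 4.87 for NC_015773.1_8158161_8159101), and none of the 4 annotated ones differed between the castes in its change (limma adjusted p for the difference 0.247 to 0.434). The MQ libraries spanned 7903 to 71506 for NC_015773.1_8158161_8159101, all above its EQ values of 365 to 1064 and all below both MW values. In the late worker-destined larvae (LW) its mean was 244515.

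A further unnamed annotated feature, NC_015772.1_3820761_3823080, rose by a similar amount from a low level. It was at 17.1, 28.5 and 38.9 in EW1, EW2 and EW3 and at 3694 and 3162 in MW2 and MW3. The 2 stages did not overlap (log2 change 6.18 ± 0.67 SE, limma adjusted p = 0.000230), and the LW libraries were higher again, from 9570 to 42070. In queen-destined larvae it stayed low, at 10.9 to 47.2 in EQ and 25.6 to 188 in MQ, and the worker change exceeded the queen change by 5.27 ± 0.90 SE on the log2 scale (limma adjusted p = 0.0276, and 0.0914 with the library set as a term). That call was also lost with the replicate block (adjusted p = 0.06604) and without EW1, EW2, MW2 or MW3 (adjusted p up to 0.113). Of the features that rose, the most abundant in MW was NC_015768.1_10636076_10637965, which had abundances of 2290, 5306 and 3614 in EW1, EW2 and EW3 and of 104466 and 226105 in MW2 and MW3, a log2 change of 5.44 ± 0.76 SE (limma adjusted p = 0.00154).

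Ornithine aminotransferase (LOC100646964), the mitochondrial enzyme that links ornithine with glutamate and proline metabolism, was the named gene with the largest rise. Its abundance was 121 in EW1, 126 in EW2 and 126 in EW3, and 938 in MW2 and 655 in MW3. The EW libraries lay close together and both MW libraries were above them, a mean 6.42-fold higher (log2 change 2.48 ± 0.22 SE, limma adjusted p = 0.000159). The call held without any of the 5 libraries and in the comparison with EW3 alone. It went on to 2872, 5451 and 5230 in the LW libraries. The gene rose in queen-destined larvae too (1.62, limma adjusted p = 0.000248), and the difference of the changes was not past the threshold (adjusted p = 0.180).

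Neighbouring features that rose together were not limited to the stretch described. A rule set after the data had been seen, at least 3 called features of 1 direction with gaps of at most 20000 bp, gave 12 such groups of rises with 57 features and 6 groups of falls with 18 features. All 10 features between 6512582 and 6572329 of NC_015774.1 rose, by 0.59 to 1.92, and their summed abundance was 550 in EW and 2342 in MW. Of the 10 features between 717588 and 771226 of NC_015778.1, 9 rose, by 0.94 to 3.11, and the summed abundance of those 9 went from 637 to 3235. Whether unannotated members belong to the annotated genes beside them was not tested, so the number of transcripts may be smaller than that of features.

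The falls were smaller on the log2 scale used. By the rule for groups most falls were single features, with 18 of 258 in groups, and so were most rises, with 57 of 285 in groups. NC_015767.1_2698404_2700314, unnamed, was at 543, 723 and 882 in EW1, EW2 and EW3 and at 79.5 and 61.3 in MW2 and MW3. The MW libraries were thus below every EW library by a wide margin, a mean 10.2-fold (log2 change -3.01 ± 0.46 SE, limma adjusted p = 0.00280). NC_015769.1_4473080_4479231 was at 1462, 1515 and 818 in the EW libraries and at 154 and 141 in the MW libraries (log2 change -2.89, adjusted p = 0.00593). Without MW2 or MW3 this call was lost, with adjusted p up to 0.0678, as it was against EW3 alone (0.155). NC_015765.1_1843980_1864628 went from 125, 121 and 86.1 to 16.4 and 7.51 (log2 change -2.03, adjusted p = 0.000230), and it also fell in queen-destined larvae (-1.53). NC_015763.1_6359773_6362415, among the abundant transcripts of EW larvae at 17668, 15502 and 9657, stood at 4854 and 2373 in MW (log2 change -2.02, adjusted p = 0.00296), a call lost without MW3 (adjusted p = 0.0593) and against EW3 alone (0.1003).

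Product names could be read for 451 features, most of which the study had listed as higher in EQ than in EW, so the named genes are a tilted sample. Of these, 4 rose and 12 fell, 3.55% against the 3.66% of all features, and their values are shown in the plot of named features by library. Against EW3 alone, the EW library of the same library set as MW, only ornithine aminotransferase of these 16 passed, and the other 15 had adjusted p from 0.06505 to 0.357. Since no named set was complete, counts over the lists below describe only members with a readable name. Beside the 3.66% of all features, the share called was 22.2% for hormone, 20% for Notch, 11.1% for lipid and steroid and 10% for digestion and storage. It was 9.09% for nutrients, 8.33% for vesicle traffic, 5.88% for growth and wing patterning and 0 in the other lists. Each share rests on 1 called member, or 2 for hormone, so none is a result about its list.

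**Figure D2:**
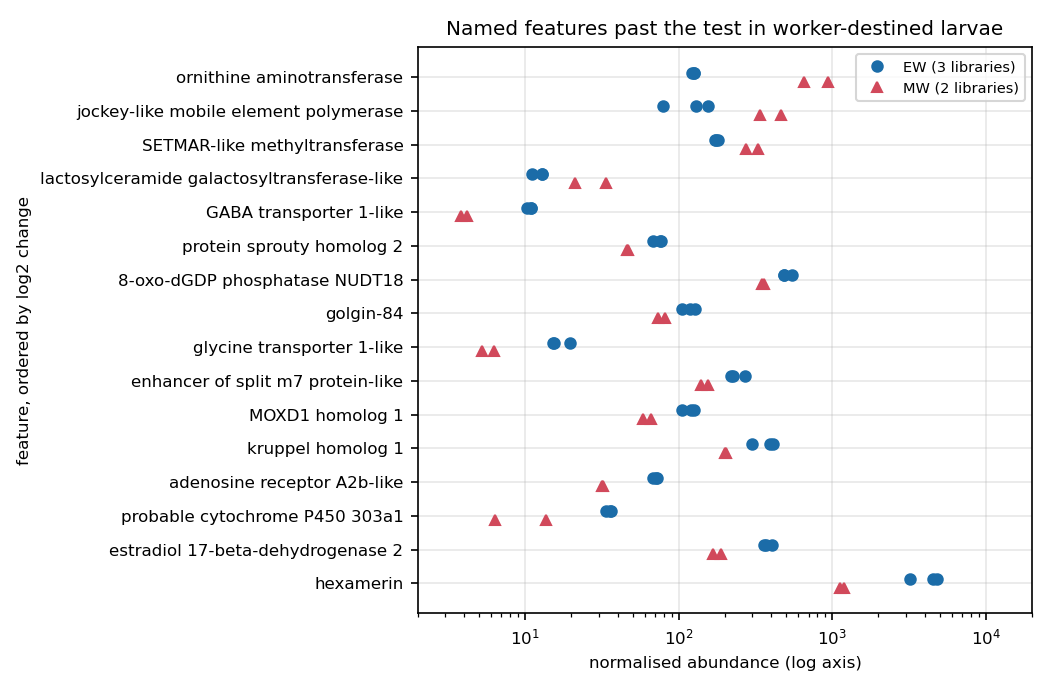
Normalised abundance (log axis) of the 16 named features past limma, ordered by log2 change from the largest rise (top) to the largest fall; circles are the 3 EW libraries and triangles the 2 MW libraries. For each feature the EW and MW points do not overlap.

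Among the 9 features of hormone synthesis and response, 2 fell and none rose, where 1.74% of all features fell (median log2 change -0.03, against -0.02 over all features). Kr-h1, the transcription factor that relays juvenile hormone, was at 390 in EW1, 409 in EW2 and 299 in EW3, and at 203 in MW2 and 200 in MW3. The MW values lay close together and under every EW value, a mean 1.82-fold lower (log2 change -0.79 ± 0.16 SE, limma adjusted p = 0.0162). The call was lost without EW1, EW2, MW2 or MW3 (adjusted p up to 0.124) and against EW3 alone (adjusted p = 0.357, log2 change -0.53). In queen-destined larvae Kr-h1 rose from 421 to 448 in EQ to 596 to 684 in MQ.

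CYP303a1 (LOC100642209), a cytochrome P450 whose *Drosophila* relative is needed for sensory bristles, was at 36.3, 33.6 and 35.9 in EW1, EW2 and EW3 and at 13.7 and 6.36 in MW2 and MW3 (log2 change -0.89 ± 0.21 SE, limma adjusted p = 0.0310). The groups did not overlap, but the call was lost without any of the 5 libraries (adjusted p up to 0.310), with the replicate block (0.138), with the library set as a term (0.0607) and with an offset of 50 (0.0665). The other 7 members did not pass. The CYP307a1-like cytochrome P450 (LOC100642619), of the ecdysteroid synthesis enzymes, was at 39.9, 38.0 and 42.3 in EW and at 27.7 and 32.0 in MW (-0.27, adjusted p = 0.460). Broad-complex (LOC100643256), a transcription factor of the ecdysone response, had a log2 change of -0.01, with 37.3 to 48.5 in EW and 40.4 to 47.9 in MW. HR38 (-0.02), hormone receptor 4-like (-0.03) and ecdysone-induced protein 78C (-0.03) had overlapping ranges, the last 2 at abundances under 5.

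Of the 10 features of digestion and storage, 1 fell. Hexamerin (LOC100650745), a storage protein that larval fat body releases into the haemolymph, was at 4841 in EW1, 3194 in EW2 and 4505 in EW3, and at 1201 in MW2 and 1114 in MW3. Every EW library exceeded both MW libraries by a wide margin, a mean 3.61-fold (log2 change -1.81 ± 0.31 SE, limma adjusted p = 0.00591). The call was lost without MW2 or MW3 (adjusted p up to 0.0699) and against EW3 alone (0.06505). It then stood at 3384, 4025 and 4626 in the LW libraries, a rise of 1.76 from MW (limma adjusted p = 0.00206), so that LW was back in the range of EW. In a bulk sample of whole larvae, less RNA per cell and fewer cells of a type cannot be told apart. The digestive enzymes did not pass: trypsin 3A1-like (LOC100650130), at 33016, 30921 and 26112 in EW, was at 30289 and 53333 in MW (adjusted p = 0.708), and phospholipase A1 (LOC100651748) was at 161 to 221 in EW and 53.5 and 71.3 in MW (-1.39, adjusted p = 0.240).

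Of 9 features of lipid and steroid enzymes, 1 fell. Estradiol 17-beta-dehydrogenase 2 (LOC100645241), named after a vertebrate enzyme that oxidises steroids, was at 407, 371 and 360 in EW1, EW2 and EW3 and at 187 and 167 in MW2 and MW3. The stages were well apart, with MW a mean 2.14-fold lower (log2 change -1.02 ± 0.15 SE, limma adjusted p = 0.00235), and the call held without any of the 5 libraries. Against EW3 alone it was lost (adjusted p = 0.0650). Glucose dehydrogenase (LOC100643617) was at 7.65 to 8.69 in EW and at 21.2 and 26.8 in MW, without passing (0.64, adjusted p = 0.0832), although it passed with an offset of 1 (1.44, adjusted p = 0.0332). Fatty acid synthase-like (LOC100652317), the enzyme that builds fatty acids, was at 231, 196 and 147 in EW and 325 and 309 in MW (0.69, adjusted p = 0.434).

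Ornithine aminotransferase was the only member past the test among 11 features of nutrient transport and metabolism. The large neutral amino acid transporter small subunit 1 (LOC100645609) was at 9.98 to 10.8 in EW and at 21.1 and 22.2 in MW (0.46, adjusted p = 0.0584), and it passed with an offset of 1 (1.00, adjusted p = 0.0216). Both facilitated trehalose transporters, carriers of the main insect blood sugar, did not pass, with log2 changes of -0.13 and 0.09 (adjusted p = 0.924 and 0.900). The insulin, growth and cell cycle list had no member past the test among 10. Its smallest p-values belonged to a phosphatidylinositol 3-kinase regulatory subunit (LOC100643962), at 72.4 to 81.2 in EW and 121 and 114 in MW (0.50, adjusted p = 0.0956), and to insulin-like growth factor I (LOC100648980), at 62.3 to 64.5 in EW and 42.4 and 47.1 in MW (-0.37, adjusted p = 0.524).

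Further named falls were 3 genes of signalling pathways. Enhancer of split m7-like (LOC100648183), a repressor that Notch switches on in *Drosophila*, was at 271, 227 and 219 in the EW libraries and at 139 and 155 in MW2 and MW3, which did not overlap (log2 change -0.63 ± 0.14 SE, limma adjusted p = 0.0212). It was the 1 member of 5 in the Notch list that passed, and delta-like (LOC100648761), a Notch ligand, was at 3.32 to 3.79 in EW and 2.96 and 2.32 in MW (adjusted p = 0.630). Sprouty homolog 2 (LOC100647937), an inhibitor of receptor tyrosine kinase signals, was at 76.5, 68.0 and 75.6 in EW and at 47.0 and 46.1 in MW (-0.49 ± 0.10 SE, limma adjusted p = 0.0171). It was the 1 of 17 members of the growth and wing patterning list that passed. The adenosine receptor A2b-like (LOC100650756) was at 72.2, 68.2 and 71.4 in EW and at 31.4 and 32.3 in MW, groups that lay far apart beside their spread (-0.80 ± 0.18 SE, limma adjusted p = 0.0239). With the replicate block the 3 had adjusted p of 0.0609, 0.0612 and 0.0601. The calls were lost without EW1, MW2 or MW3 for all 3, without EW2 for the first and the last, and without EW3 for the last, with adjusted p up to 0.191, 0.134 and 0.153. With an offset of 1 the adenosine receptor did not pass either (adjusted p = 0.06596).

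A pair of carriers of transmitter amino acids was among the named falls. The glycine transporter 1-like (LOC100642661) was at 19.5, 15.2 and 15.4 in the EW libraries and at 6.29 and 5.21 in MW (log2 change -0.51 ± 0.12 SE, limma adjusted p = 0.0281). The GABA transporter 1-like (LOC100642415) was at 10.2, 10.9 and 11.0 in EW and at 3.80 and 4.15 in MW (-0.36 ± 0.07 SE, adjusted p = 0.0104). Both lay below the offset of 20, so the fitted changes are smaller than the ratios of the means, 2.90 and 2.69, and the calls depended on the offset. With an offset of 1 the GABA transporter did not pass (adjusted p = 0.125), and with an offset of 50 the glycine transporter did not (0.0521). With the replicate block the adjusted p were 0.0544 and 0.0681, and without MW2 or MW3 they rose up to 0.210 and 0.1004, as did that of the glycine transporter without EW1 or EW2.

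Of the remaining named falls, golgin-84 (LOC100648502), a protein that holds the Golgi stacks together, was at 128, 118 and 105 in EW1, EW2 and EW3 and at 81.4 and 73.0 in MW (log2 change -0.49 ± 0.10 SE, limma adjusted p = 0.0184). It was the 1 of 12 vesicle traffic members that passed. MOXD1 homolog 1 (LOC100645538), a monooxygenase, was at 125, 121 and 105 in EW and 66.3 and 58.4 in MW (-0.73 ± 0.16 SE, adjusted p = 0.0256). NUDT18 (LOC100648588), which removes oxidised nucleotides, was at 484, 487 and 545 in EW and 357 and 350 in MW (-0.49 ± 0.11 SE, adjusted p = 0.0212). None of the 3 overlapped between stages. Their adjusted p with the replicate block were 0.0587, 0.0864 and 0.0872, and each call was lost without EW2, MW2 or MW3, golgin-84 and MOXD1 also without EW1 and NUDT18 also without EW3, with adjusted p up to 0.191, 0.214 and 0.161. With the library set as a term the calls of MOXD1 and NUDT18 were lost too (adjusted p = 0.0574 and 0.0521).

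Besides ornithine aminotransferase, 3 named features rose, and 2 of them carry names of mobile elements. A jockey-like RNA-directed DNA polymerase (LOC105666749), of a family of retrotransposons, was at 130, 78.9 and 156 in EW1, EW2 and EW3 and at 462 and 339 in MW2 and MW3 (log2 change 1.60 ± 0.31 SE, limma adjusted p = 0.0134). A SETMAR-like feature (LOC105666616), named after a protein that joins a methyltransferase to a mariner transposase, was at 179, 174 and 173 in EW and at 330 and 276 in MW (0.72 ± 0.13 SE, adjusted p = 0.00926). Lactosylceramide 4-alpha-galactosyltransferase-like (LOC100650768), named after an enzyme that adds sugar to glycolipids, was at 12.9, 12.8 and 11.0 in EW and 21.2 and 33.4 in MW (0.54 ± 0.10 SE, adjusted p = 0.00815). None overlapped between stages. The jockey-like call was lost without EW2, MW2 or MW3, the SETMAR-like call without MW2 and the galactosyltransferase call without MW3, with adjusted p up to 0.146, 0.132 and 0.117.

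No member passed in the lists of cuticle (9 features), muscle (10), cilia (9), neural signalling (24), axon guidance and adhesion (13), chromatin (7), extracellular matrix (8) or patterning transcription factors (16), as the plot of the lists shows. Of the 24 neural signalling features, 22 had mean abundances below the offset, as did 13 of the 16 patterning factors, so changes of these are hardly visible on this scale. Of the 10 muscle genes, which serve as markers of that tissue, 4 had mean abundances below the offset. Troponin C isoform 3 (LOC100650495), one of the abundant ones, was at 1528 to 1738 in EW and at 1548 and 1178 in MW (-0.28, adjusted p = 0.586). Proline-rich extensin-like EPR1 (LOC105666091) of the cuticle list was at 138 to 231 in EW and 108 and 86.9 in MW (-0.73, adjusted p = 0.556).

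**Figure D3:**
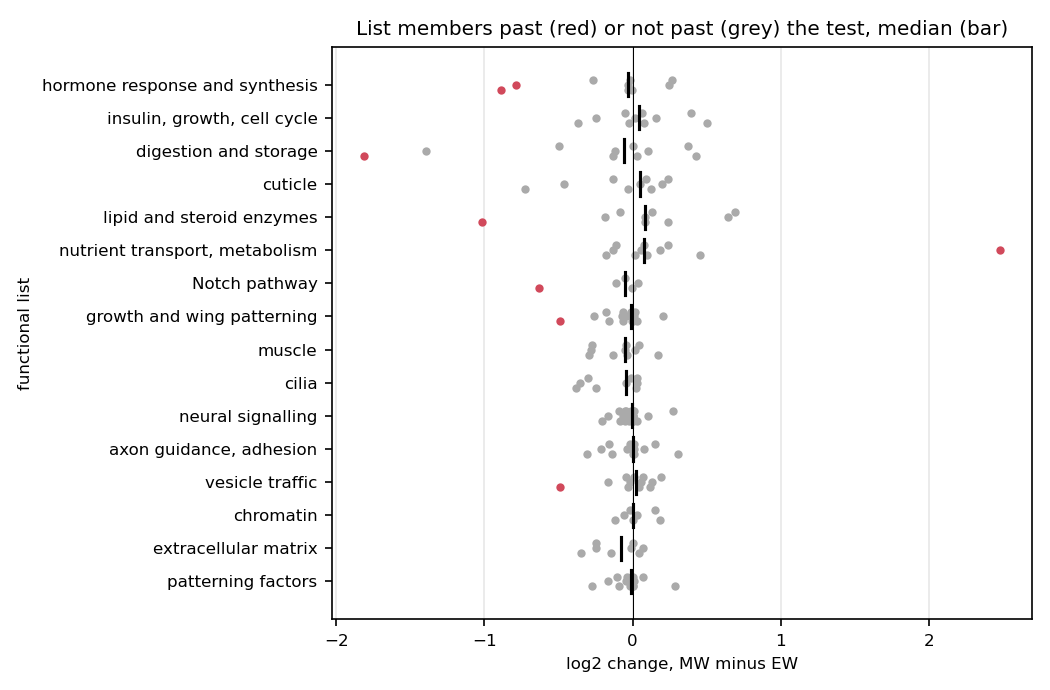
Log2 change from EW to MW of every member of the 16 functional lists; red points passed limma at an adjusted p under 0.05, grey points did not, and black bars are list medians. The red points are 7 falls and 1 rise, and the medians run from -0.078 (extracellular matrix) to 0.085 (lipid and steroid enzymes), with the offset of 20.

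The early to mid change of queen-destined larvae, measured in other libraries, was called for more features: 1512 were higher in MQ than in EQ (10.2%) and 1129 lower (7.62%). That comparison had 6 libraries and the worker one 5, and the library sets fall differently in them. The counts therefore do not measure which caste changed more. Of the 285 features that rose in worker-destined larvae, 124 (43.5%) rose and 1 fell in queen-destined larvae. Of the 258 that fell, 163 (63.2%) also fell and 4 rose. The rises divided by kind of feature. Among the 125 on placed sequences with an annotation, 83 rose in queen-destined larvae (66.4%) and the median queen change was 0.89. Among the 102 that were unannotated and on unplaced scaffolds, 10 did (9.80%) and the median queen change was -0.18, although the worker change was alike in the 2 kinds, with medians of 1.16 and 1.25. The 9.80% lies near the 10.2% of all features that rose in queen-destined larvae. How many of all features of each kind rose there was not determined, so the division may not be particular to the worker rises. Unplaced scaffolds held 123 of the 285 rises, 3.32% of their 3709 features, against 1.46% of the 11108 placed ones. For example, uNW_003566484.1_500_835 was at 287, 250 and 267 in EW1, EW2 and EW3 and at 742 and 594 in MW2 and MW3. Its EQ libraries were at 294 to 400 and its MQ libraries at 255 to 282, so the MW libraries stood above all the others of these stages. The difference between its 2 changes passed limma (adjusted p = 0.0198), but not with the library set as a term (0.0606). The 22 features that tell the library sets apart were all unannotated too, and 19 lay on unplaced scaffolds. MW2, MW3 and MQ2 are of the same set, and MQ1 and MQ4 are of the other. The part of the sets in this division of the rises was not tested.

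**Figure D4:**
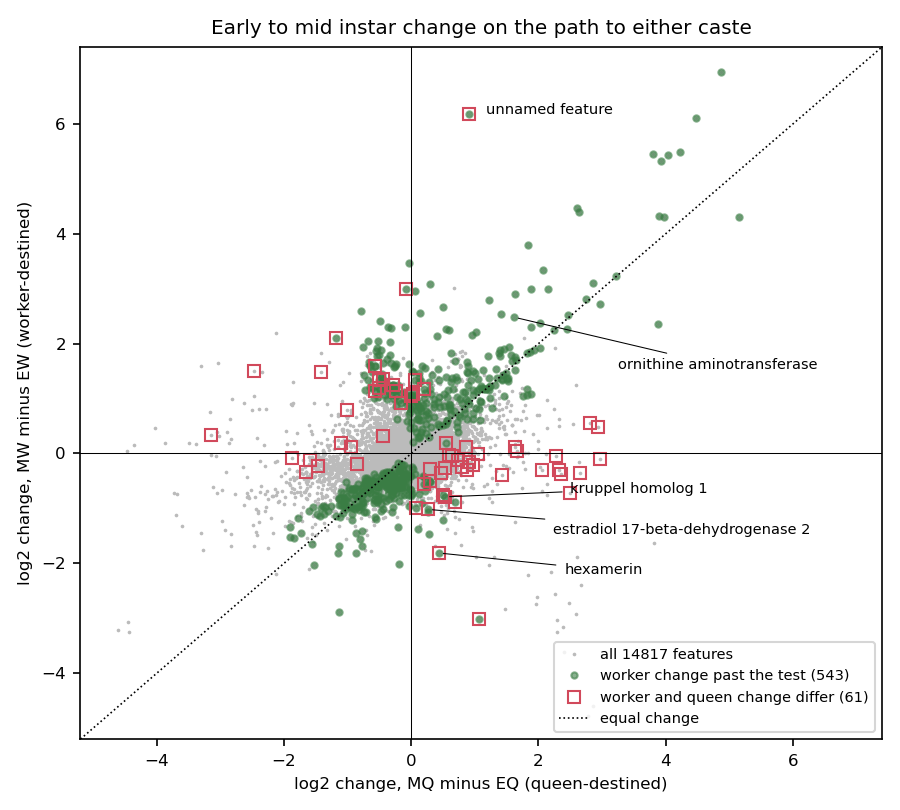
Log2 change from early to mid instar in worker-destined larvae (vertical) against that in queen-destined larvae (horizontal), on the log2(abundance + 20) scale; grey points are all 14817 features, green points the 543 past limma in worker-destined larvae, open squares the 61 whose change differs between the castes, and the dotted line marks equal change. Hexamerin, Kr-h1 and estradiol 17-beta-dehydrogenase 2 lie below the horizontal axis and to the right of the vertical one.

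The test of the difference between the 2 changes called 61 features (0.412%), 27 with the worker change above the queen change (0.182%) and 34 with it below (0.229%). In 24 of the 61 only the queen-destined larvae passed with a rise and in 12 only with a fall, whereas 14 rose and 5 fell in worker-destined larvae alone. For 4 the worker-destined larvae fell while the queen-destined larvae rose, for 1 the reverse held, and for 1 both rose. These calls were not stable. No feature passed limma with the library set as a term, without EW1, without EW2 or without EQ3, where 634, 760, 724 and 716 features had an unadjusted p under 0.05 with the worker change above and 990, 1225, 1000 and 1077 with it below. Above and below, the counts were 72 and 99 without EW3, 8 and 7 without MW2, 9 and 2 without MW3, 16 and 20 without EQ1, 6 and 14 without EQ2, 49 and 39 without MQ1, 272 and 381 without MQ2, 2 and 5 without MQ4, and 7 and 5 with the replicate block.

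Named genes among them were shown by phenotype in the plot of 6 genes. Hexamerin fell in worker-destined larvae while in queen-destined larvae it was at 5751 to 6522 in EQ and 6385 to 11398 in MQ, a difference of the changes of -2.25 ± 0.42 SE (limma adjusted p = 0.0363). The difference was -1.33 ± 0.22 SE for Kr-h1 (adjusted p = 0.0222), -1.28 ± 0.20 SE for estradiol 17-beta-dehydrogenase 2 (0.0216), -1.58 ± 0.28 SE for CYP303a1 (0.0298), -0.79 ± 0.14 SE for golgin-84 (0.0282) and 2.17 ± 0.42 SE for the jockey-like polymerase (0.0451). Estradiol 17-beta-dehydrogenase 2 was at 469 to 488 in EQ and 533 to 628 in MQ, and CYP303a1 at 41.8 to 54.55 and 66.6 to 128. For both, every MQ library lay above both MW libraries, and every EQ library above every EW library. Most readable names belong to features that the study had listed as higher in EQ than in EW. The gap between EQ and EW was thus largely a condition of having a name and is no separate result. With the replicate block all 6 calls were lost (adjusted p of 0.122, 0.06604, 0.08292, 0.134, 0.1001 and 0.0912, in the order given), as they were with the library set as a term, without EW1, EW2, MW2, MW3, EQ2, EQ3 or MQ4. Over the alternatives the difference lay between -2.44 and -2.14 for hexamerin, -1.46 and -1.13 for Kr-h1, -1.37 and -1.17 for estradiol 17-beta-dehydrogenase 2, -2.68 and -1.02 for CYP303a1, -0.93 and -0.64 for golgin-84 and 1.77 and 2.41 for the jockey-like polymerase. These ranges cover 16 alternatives, 15 for CYP303a1. They leave out the fits without an EQ or MQ library and the fit of early and mid libraries alone. How far the difference of each gene moves in those fits is thus not shown by them. The widest of these ranges, that of CYP303a1, came with the offset, from -2.68 at 1 to -1.02 at 50.

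**Figure D5:**
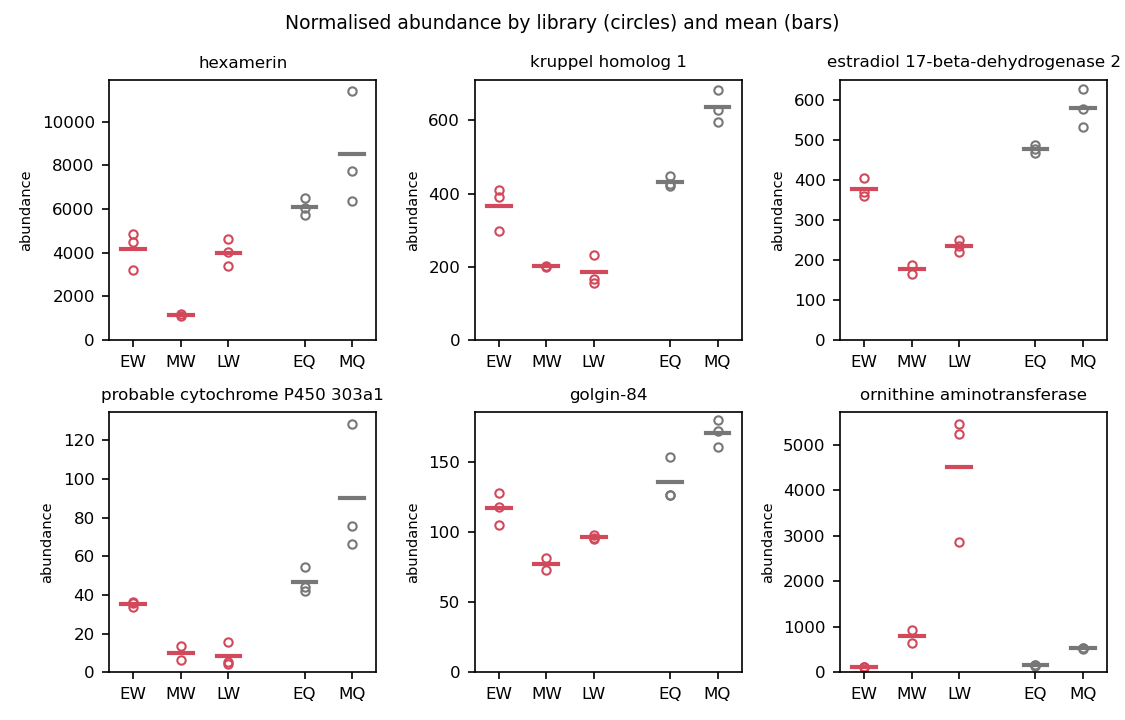
Normalised abundance (linear axes from 0) of 6 named genes in worker-destined (EW, MW, LW, red) and queen-destined (EQ, MQ, grey) larvae; circles are libraries and bars are means. Hexamerin is low in MW alone, ornithine aminotransferase climbs through EW, MW and LW, and the other 4 are lower in MW than in EW, EQ or MQ.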

How the data were processed

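RNA from pooled whole larvae was sequenced and, per the methods of the authors, the reads were aligned to the genome build Bter_1.0 with PatMaN, summed over each annotated gene or unannotated transcript, corrected for feature length and quantile-normalised. The deposited values are a signal, a normalised abundance per feature with no read counts, so no counting interval can be given. The library totals agree (10381400 to 10381500), as do medians (117.81 to 117.85), and the highest values recur between libraries because they are set by rank. Of 14817 features, 4812 are unannotated.

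Here, abundances were offset by 20 and log2-transformed, and 6 phenotype means were modelled in limma 3.58.1 (R 4.3.3; trended prior variance) over the 17 libraries, which share 1 spread per feature (11 residual degrees of freedom). Tests were two-sided, with Benjamini-Hochberg adjustment over all features and a threshold of 0.05. On simulated data with 14817 features and the layout of MW against EW, 74% of features changed by 1 on the log2 scale and 97% of those changed by 2 were found, with 4 false calls among 175. The simulated noise was normal and independent between features and libraries, without colonies or library sets. These rates check the fit and do not give the error rate of the calls in the real data. Figures were drawn with matplotlib.

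Replicate numbers mark colonies within a caste in the sample table of the study, so same-numbered worker libraries share a colony. Deviations from the group means correlated by 0.05 for EW2 and MW2 and 0.13 for EW3 and MW3. Over all worker-destined libraries the correlations ran from -0.24 to 0.32 for pairs of the same colony and from -0.32 to 0.31 for pairs of different colonies (0.16 for EW1 and MW2), so the pairing rests on the sample table and not on the values. Named genes were, per direction, the 15 named and the 5 of all features with the largest change past limma without overlap, up to 4 members per list, 7 fixed genes, and per direction the 5 named and 3 of all features with the smallest p for the difference between castes. Product names came from a supplementary list that could be read in part (1054 lines, all matched). The members and the lists were chosen with earlier results of these data known. No sequence could be printed for these features.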

Additional observations from a re-analysis of the deposited data

Results flagged for a closer look

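For 14 of the features named by the fixed rule, the change from early to mid instar differed between worker-destined and queen-destined larvae in the limma test of the difference itself with Benjamini-Hochberg adjustment. The values below are the worker change minus the queen change on the log2(abundance + 20) scale.

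The difference was below 0 for 9 of them. It was -4.07 for NC_015767.1_2698404_2700314, -2.25 for hexamerin, -1.58 for CYP303a1, -1.33 for Kr-h1, -1.28 for estradiol 17-beta-dehydrogenase 2 and -0.79 for golgin-84. These 6 were lower in MW than in EW and had a positive queen change. The unannotated uNC_015764.1_8677570_8678513 (-1.25) fell from 13.7 to 15.2 in EW to 1.03 and 0 in MW, while it was at 15.8 to 20.8 in EQ and 24.4 to 46.1 in MQ. The uncharacterised LOC105666063 (-0.61) and uNC_015772.1_16036258_16037622 (-1.52) were not called in worker-destined larvae and rose in queen-destined larvae, the latter from 10.7 to 20.8 in EQ to 76.0 to 105 in MQ.

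The difference was above 0 for the other 5. It was 5.27 for NC_015772.1_3820761_3823080, 2.17 for the jockey-like polymerase and 1.54 for uNW_003566484.1_500_835, which rose in worker-destined larvae alone by the test of each caste. NC_015770.1_14064922_14069970 (3.50) was at 1058 to 1554 in EW and 1169 and 2377 in MW, and fell from 947 to 1543 in EQ to 57.7 to 181 in MQ. NW_003566591.1_9738_111099 (0.67) was at 19.3 to 22.6 in EW and 14.4 and 18.6 in MW, and fell from 18.1 to 21.2 in EQ to 0.63 to 3.22 in MQ. With the library set as a term none of the 14 passed, with adjusted p from 0.0606 to 0.141. With the replicate block 11 of the 14 did not pass, among them NC_015767.1_2698404_2700314 (adjusted p = 0.0938), LOC105666063 (0.0861), NW_003566591.1_9738_111099 and NC_015770.1_14064922_14069970 (0.06604 each). The 3 that passed with the block were the unannotated uNC_015764.1_8677570_8678513 (0.0428), uNC_015772.1_16036258_16037622 (0.0466) and uNW_003566484.1_500_835 (0.0428).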

How the results depend on the processing

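The limits are the number of libraries, 3 EW and 2 MW, and the normalised values, which hold no read counts. Over the leave-one-out fits 86 to 272 features were higher in MW and 45 to 246 lower. Where 1 MW library was left, it was assumed to vary like the other groups. Higher and lower, the counts were 177 and 81 for features with a mean of at least 100, 146 and 162 over annotated features alone, 928 and 1026 with library weights, 125 and 88 from worker-destined libraries alone, 103 and 76 at an adjusted p under 0.01, and 73 and 46 against EW3 alone. In addition, 156 were lower from EW and MW libraries alone and 44 were lower with a log2 change over 1.

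With the replicate block (the colony as a fixed term), 148 features were lower, and from worker-destined libraries alone with the block 97 were higher and 42 lower. The count of higher features stayed within 1.5 times, and the block as a random effect, with a correlation of 0.147, moved neither count by more. Of the 16 named features past limma, 7 passed with the block as a fixed term and 16 as a random effect, and the values of the lost calls stand with each gene. The block turned no called change.

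For the difference between castes, above and below 0, the counts were 9 and 11 with an offset of 1, 16 and 14 for means of at least 100, 7 and 5 with the replicate block as a fixed term and 105 and 70 as a random effect, 722 and 1418 with library weights, and 0 and 0 with the library set as a term. Over annotated features 12 were above. The leave-one-out counts ran from 0 to 272 and from 0 to 381.

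Ranges did not overlap for 1444 higher and 1678 lower features with a mean of at least 100, and for 3128 to 4548 and 3530 to 5029 in the leave-one-out sets. The offset fold change rule gave 226 and 113 features with an offset of 1, 32 and 3 over a value of 2, 13 lower with an offset of 50, and 138 to 234 and 31 to 82 in the leave-one-out sets. Stage share stayed between 48.7 and 71.3%.

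List medians with an offset of 1 were -0.15 for hormone, 0.083 for growth, 0.30 for lipid and steroid, -0.22 for Notch, -0.059 for wing growth, -0.18 for muscle, -0.29 for cilia, -0.052 for neural signalling, 0.042 for axon guidance, -0.15 for matrix and -0.061 for patterning.

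Only changes that had not passed turned sign. HR38 was at 0.061 with the replicate block as a fixed term, 0.0014 as a random effect, 0.018 with the library set as a term and -0.18 to 0.14 in the leave-one-out fits. Broad-complex was at 0.040 with the replicate block as a fixed term, 0.0046 as a random effect, 0.16 against EW3 alone and -0.091 to 0.076 in the leave-one-out fits. Golgi phosphoprotein 3 was at 0.036 against EW3 alone. In the leave-one-out fits hormone receptor 4-like ran from -0.061 to 0.0056, LOC105666063 from -0.066 to 0.019, uNC_015772.1_16036258_16037622 from -0.055 to 0.28 and NC_015770.1_14064922_14069970 from -0.16 to 0.85.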

Other observations

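The 20 most abundant features of EW and those of MW had 12 in common, and took 25.03% of all abundance in EW and 25.97% in MW. Quantile normalisation gave every library nearly the same values by rank. The closeness of these shares was thus largely set in advance and is no result about the larvae. Of the 20 in MW, 4 had risen from EW, 3 of them within the stretch on NC_015773.1, and of the 20 in EW none had fallen by limma.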
